A study of Mus musculus with 12 samples.

Results

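The Hox genes encode the homeodomain transcription factors by which cells of the trunk and limbs record their position along the body axis. All gene names of the form Hox, cluster letter a to d and paralog number were taken from the deposited tables, which gave 39 genes of the 23284 listed for sorted osteoblasts and the 24346 listed for MC3T3-E1 cells, with all 39 in both tables. The sorted cells were osteoblasts of female Col2.3-ECFP transgenic mice, in which the type I collagen promoter drives a cyan reporter, and the mice were 12 weeks old when treatment began. For 3 weeks they were injected subcutaneously with PBS (vehicle) or, on 5 days of each week, with 40 µg/kg of the parathyroid hormone fragment PTH(1-34) daily. The cells were sorted 24 h after the last injection, through a gate for live (7AAD-), lineage-negative (Lin-), CD45- and ECFP+ cells, which is meant to remove blood cells. Calvaria, arm bones, hips, tibia and femur were crushed, so that a library could mix cells from the skull, the limbs and the pelvis. The methods do not say whether a library came from a single mouse or a pool. The second experiment used MC3T3-E1, a clonal osteoblastic line derived from mouse calvaria, carrying either the empty retroviral vector (mock) or the vector with *Slpi*, which encodes secretory leukocyte protease inhibitor, after puromycin selection in both arms. Each of the 4 groups had 3 libraries, and nothing in the labels says whether the MC3T3-E1 libraries were separate cultures, so that the *p* values of that experiment may cover technical spread only.

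In mammals the Hox genes lie in 4 clusters, and within a cluster the paralog number runs in the order of the genes on the chromosome, from those first used toward the head to those last used at the tail and the tips of the limbs. Genes of one paralog number in different clusters derive from a common ancestor and share much of their function. Most of the bone of the skull vault forms from tissue with little Hox expression, while osteoblasts of limb, vertebral and pelvic bone keep a Hox pattern of their site of origin into adult life. Hox proteins bind DNA together with TALE homeodomain cofactors of the Pbx and Meis families, and silent Hox genes are kept off by Polycomb proteins.

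Values were FPKM, that is, reads on a gene scaled to transcript length and to the mapped reads of a library, and a gene was called expressed in a group at an FPKM of at least 1 in all 3 libraries and silent when it was below 1 in all 3. Silent in this sense does not mean absent. The step that 1 read makes in the values of low genes gave an approximate depth, at which an FPKM of 1 on a transcript of 2 kb stood for 9.09 to 16.1 reads in osteoblasts and 43.8 to 51.4 reads in MC3T3-E1 cells. Osteoblast libraries therefore carried more counting error at the same FPKM. *Slpi* had an FPKM of 377, 396 and 386 in the mock libraries and 2105, 1973 and 1848 in the *Slpi* libraries, as the labels say. Of 12 osteoblast markers, 10 were expressed in vehicle osteoblasts, but *Col1a1* and *Col1a2* were listed at 0 in vehicle replicate 3 and in all PTH libraries, and an exact 0 in these tables can thus be a failed estimate. Several marker lists of other cells moved between the osteoblast libraries. Neutrophil markers summed to an FPKM of 376 to 472 with vehicle and 676 to 2298 with PTH, lymphocyte markers to 131 to 222 and 3.64 to 26.9, and muscle markers reached 2377 in PTH replicate 2 against at most 17.5 in the other 5 libraries.

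The clusters were placed on mm10 with GENCODE annotation. *Hoxa* spans chr6:52155590-52260880 with 11 genes, *Hoxb* chr11:96194316-96368256 with 10, *Hoxc* chr15:102921103-103036852 with 9 and *Hoxd* chr2:74668310-74765142 with 9. To show the DNA in front of genes that differed in expression, the 250 bases before a RefSeq transcription start (GRCm38.p6) are given for 1 gene expressed in both cell types (*Hoxa10*, chr6:52240855-52241104, minus strand), for a pair expressed in vehicle osteoblasts and silent in mock cells (*Hoxd8*, chr2:74704365-74704614, and *Hoxd13*, chr2:74667975-74668224, plus strand) and for the gene listed at 0 in all 12 libraries (*Hoxb1*, chr11:96365508-96365757, plus strand). They read 5′ to 3′ along the strand of the gene, and capitals mark CpG dinucleotides, the sites of DNA methylation.
Hoxa10: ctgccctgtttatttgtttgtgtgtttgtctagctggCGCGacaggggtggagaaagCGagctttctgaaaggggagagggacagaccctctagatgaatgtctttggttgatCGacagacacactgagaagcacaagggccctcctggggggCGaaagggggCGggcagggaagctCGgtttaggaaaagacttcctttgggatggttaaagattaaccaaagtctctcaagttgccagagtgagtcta
Hoxd8: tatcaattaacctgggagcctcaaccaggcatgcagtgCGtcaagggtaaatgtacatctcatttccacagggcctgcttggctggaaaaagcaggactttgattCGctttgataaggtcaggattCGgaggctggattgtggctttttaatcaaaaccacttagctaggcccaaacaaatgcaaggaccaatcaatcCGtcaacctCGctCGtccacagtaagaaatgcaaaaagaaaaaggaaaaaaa
Hoxd13: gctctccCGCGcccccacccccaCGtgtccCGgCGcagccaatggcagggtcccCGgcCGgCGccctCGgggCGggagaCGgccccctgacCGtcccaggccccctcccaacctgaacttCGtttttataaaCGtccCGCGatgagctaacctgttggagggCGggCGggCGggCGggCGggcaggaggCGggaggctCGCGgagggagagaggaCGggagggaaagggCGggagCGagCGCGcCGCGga
Hoxb1: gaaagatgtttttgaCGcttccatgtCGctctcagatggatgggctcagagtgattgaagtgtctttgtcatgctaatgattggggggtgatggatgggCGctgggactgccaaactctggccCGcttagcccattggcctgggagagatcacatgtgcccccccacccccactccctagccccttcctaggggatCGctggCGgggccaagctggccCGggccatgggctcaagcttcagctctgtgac
*Hoxd13* held 31 CpG in this stretch, against 6 in *Hoxd8*, 7 before this start of *Hoxa10* and 7 in *Hoxb1*. A second RefSeq start of *Hoxa10*, inside the gene, had 20 CpG in its 250 bases and held TATAAA on the strand opposite to the gene. The *Hoxa10* stretch shown held it on neither strand, and the *Hoxd13* stretch held it along the strand of the gene. RefSeq windows of 250 bases before to 50 after the start were at hand for 22 Hox genes (24 windows) and were missing for 17, among them *Hoxb2*, *Hoxb13*, *Hoxc6*, *Hoxc9* and *Hoxc10*. The median was 14.5 CpG per Hox window (range 4 to 45) and 7 over all 32851 windows, of which 34.6% held at least as many as the Hox median. The median was 21 over the 5 windows of Hox genes expressed in vehicle osteoblasts and 15 over the 17 of silent ones. The letters TATAAA, on either strand, were in 4 of 24 Hox windows, or 16.7%, and in 13.6% of all windows.

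Vehicle-treated osteoblasts expressed 9 of the 39 Hox genes, with members in each of the 4 clusters and in each part of the axis. Over all genes in both tables (21733), 47.6% were expressed in these cells. Of the posterior genes (paralogs 9 to 13, toward the tail and the distal limb), 5 of 16 were expressed. *Hoxb13*, the most 5′ gene of its cluster, known from the tail bud, the hindgut and the prostate, was the highest Hox gene, with an FPKM of 7.93, 15.1 and 9.41 in vehicle replicates 1, 2 and 3. *Hoxd13*, which patterns the digits and the hindgut, had 2.96, 4.46 and 3.55. Their neighbors in paralog number 13 in the other clusters were far lower, since *Hoxa13*, also a gene of the digits and the hindgut, reached at most 0.317 and *Hoxc13* was listed at 0 in all 3 libraries.

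Paralogs 9 and 10, which pattern the upper segment of the limbs and the lumbar and sacral vertebrae, came from clusters A and C. *Hoxa10* had an FPKM of 4.33, 2.44 and 4.81 with vehicle, and *Hoxc10*, a gene of the hindlimb and lumbar region, had 2.75, 2.68 and 3.29. *Hoxc9*, active in the thoracic region, was lower, at 2.38, 1.18 and 1.39, and the lowest of these was the value nearest above the threshold among the expressed genes. *Hoxd10*, the third gene of that paralog number, did not exceed 0.591. Paralog 11, which patterns the forearm and the lower leg, was below the threshold in every vehicle library, with *Hoxa11* at 0.384, 0.878 and 0.517, *Hoxc11* at most 0.281 and *Hoxd11* at most 0.291.

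Of the 11 central genes (paralogs 5 to 8), 3 were expressed. *Hoxd8*, the highest of them and the second highest Hox gene by mean, had an FPKM of 3.47, 5.23 and 4.13. *Hoxc6*, which marks thoracic and forelimb levels, had 2.03, 1.44 and 2.53, and *Hoxa5*, a gene of the cervical and upper thoracic region and the shoulder girdle, had 1.87, 1.31 and 1.54. Of the 12 anterior genes (paralogs 1 to 4), *Hoxb2*, known from the hindbrain and the neck, was the only gene expressed in all 3 libraries, at 2.42, 4.47 and 4.61. *Hoxc4* (0.881, 1.01 and 0.461) and *Hoxd4* (0.865, 1.01 and 0.298) passed the threshold in replicate 2 alone and lay nearest outside it. Vehicle levels of *Hoxd8*, *Hoxa10*, *Hoxb2* and *Hoxd13* overlapped between libraries and gave no order among these genes. Of the 28 silent genes, 6 were listed at 0 in all 3 libraries.

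Mock MC3T3-E1 cells expressed 3 Hox genes, all of cluster A, where 47.2% of all genes in both tables were expressed. *Hoxa10* was the highest Hox gene here, with an FPKM of 3.63, 3.95 and 3.80 in mock replicates 1, 2 and 3. *Hoxa5* had 1.79, 1.91 and 1.45, and *Hoxa3*, which patterns the throat and neck, had 1.55, 1.29 and 1.48. *Hoxa6* (0.929, 1.73 and 1.42) and *Hoxa2*, the gene that sets the second branchial arch (0.865, 0.962 and 1.05), lay on both sides of the threshold. Outside cluster A the highest value in any mock library was 0.665, of *Hoxc6* in replicate 3, and 7 of the 9 *Hoxd* genes were listed at 0 in all 3 libraries. *Hoxa3* overlaps *Hoxa4*, *Hoxa5* and *Hoxa6* on the same strand and antisense transcripts on the other, so that its reads may not be its own. The same limit holds for genes expressed in vehicle osteoblasts. *Hoxc5* overlaps *Hoxc6*, *Hoxc9* and *Hoxc10* on the same strand, and antisense genes overlap *Hoxb2* and *Hoxd8*.

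Set side by side, 7 Hox genes were expressed in vehicle osteoblasts and silent in mock cells, namely *Hoxb2*, *Hoxb13*, *Hoxc6*, *Hoxc9*, *Hoxc10*, *Hoxd8* and *Hoxd13*. Among all 21733 genes the share with that pattern was 5.36%. The opposite pattern was found for *Hoxa3* alone, against 2.80% of all genes. *Hoxa5* and *Hoxa10* were expressed in both (41.9% of all genes) and 25 Hox genes were silent in both. Levels in mock cells were lowest for the genes of clusters B and D. *Hoxb2*, *Hoxb13* and *Hoxd13* were listed at 0 in all 3 mock libraries, and *Hoxd8* in 2 of them with 0.052 in the third. *Hoxc10* was at 0.020, 0.021 and 0.045, *Hoxc9* between 0.127 and 0.139 and *Hoxc6* between 0.402 and 0.665. In the opposite direction *Hoxa3* had an FPKM of 0.335, 0.255 and 0.050 in vehicle osteoblasts. The 2 experiments were normalized separately and their library kits may differ, so no test was made between them. The sorted libraries also held markers of other cells. Gut epithelium markers summed to 168 to 252 with vehicle and at most 1.04 in mock cells, and lymphocyte markers to 131 to 222 and at most 0.118. Cell line, bones sampled, RNA of other cells and library preparation cannot be told apart in these differences.

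**Figure D1:**
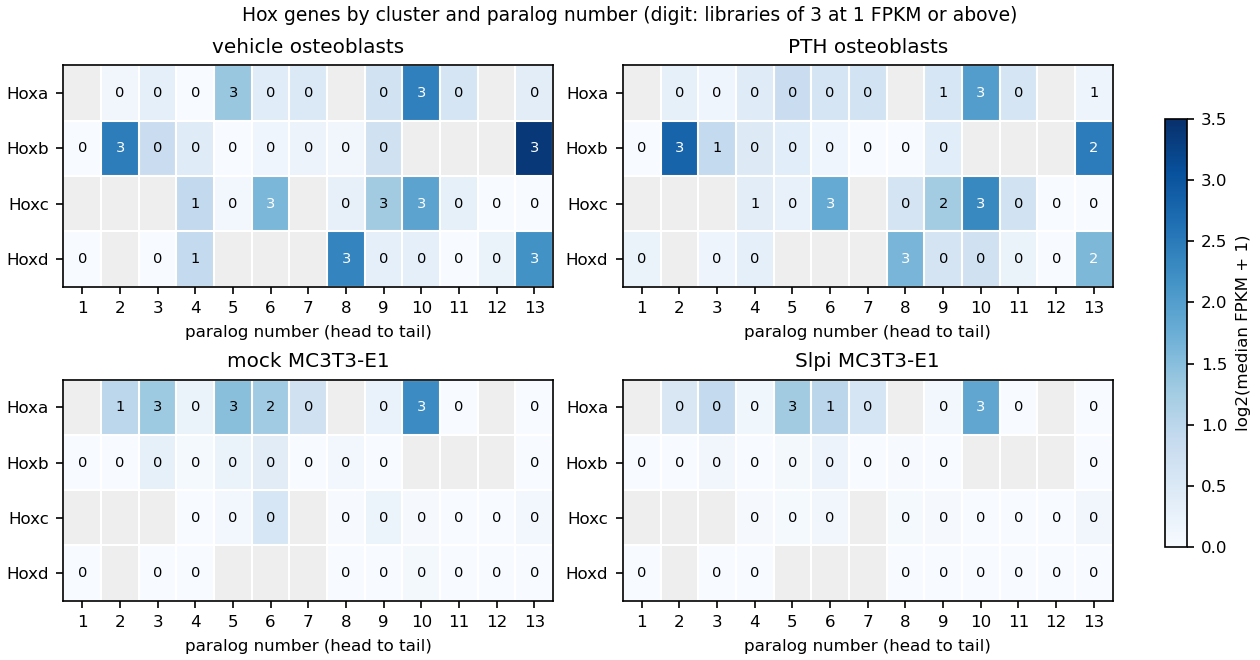
Each square is 1 Hox gene, placed by cluster (rows) and paralog number (columns, head to tail), with gray where no gene exists or none is shown. Color gives log2(median FPKM + 1) over the 3 libraries of a group and the digit counts the libraries at 1 FPKM or above: vehicle osteoblasts have a 3 in all 4 clusters, while mock and *Slpi* MC3T3-E1 cells have digits above 0 in the *Hoxa* row alone.

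The FPKM of all 39 Hox genes summed to 37.2, 45.4 and 43.1 with vehicle, whereas the mock libraries gave sums of 11.7, 13.2 and 12.3. Cluster A held 14.1 to 22.9% of that sum in vehicle osteoblasts and 85.3 to 86.0% in mock cells, without overlap. Posterior genes held 61.1 to 62.3% and 33.3 to 36.1%, respectively, and *Hoxa10* alone made up 29.98 to 30.95% of the mock sum. The posterior share with vehicle leaned on *Hoxb13*, which alone made up 21.3 to 33.2% of the vehicle sum. With PTH the posterior share was 56.3, 65.6 and 36.9% in replicates 1, 2 and 3, the last with *Hoxb13* and *Hoxd13* listed at 0. Without *Hoxb13* and *Hoxd13* the vehicle sums were 26.3, 25.9 and 30.2, still above those of the mock cells. Protein-coding genes within 500 kb of a cluster did not show this contrast in number. Of the 46 such genes, 32 were expressed in vehicle osteoblasts and 28 in mock cells, and beside cluster D, *Mtx2*, which encodes a mitochondrial import protein, had mean FPKM of 27.5 and 30.6. Single genes did differ in level. Beside cluster B, *Abi3* had means of 76.8 and 0.973 and *Phospho1* of 26.6 and 0.306, while *Igf2bp1* went the other way, with 0 and 6.32.

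The pair of expressed paralog 13 genes was read library by library. *Hoxb13* had 7.93, 15.1 and 9.41 with vehicle and 4.56, 11.0 and 0 with PTH, and *Hoxd13* had 2.96, 4.46 and 3.55 with vehicle and 2.03, 3.35 and 0 with PTH, so that both were listed at 0 in PTH replicate 3. The same library held *Hoxa10* at 3.03, *Hoxc10* at 4.51 and *Hoxd8* at 2.11, within or near the range of the other PTH libraries. Most gut epithelial genes followed *Hoxb13* and *Hoxd13* across libraries. *Lgals4*, an intestinal lectin, had 75.05, 122 and 101.1 with vehicle and 64.5, 125 and 1.27 with PTH, and *Cdx1*, a homeobox gene of the intestine and the tail bud that controls Hox genes, had 3.85, 4.51 and 3.11 and then 2.90, 4.05 and 0. *Cdx2*, listed with *Cdx1*, did not follow them among vehicle libraries. It had 0.565, 0.103 and 0.845 with vehicle and 0.144, 1.03 and 0 with PTH. *Hoxb13* and *Lgals4* ranked the 6 libraries in the same order except for the top pair, vehicle replicate 2 and PTH replicate 2. Of the 8 gut epithelium markers, 7 were listed in the osteoblast table and 6 were expressed with vehicle, and their sum was 168 to 252 with vehicle, 132 and 252 in PTH replicates 1 and 2 and 5.31 in PTH replicate 3, where *Cdhr5* and *Fabp2* were at 0. In MC3T3-E1 cells, where *Hoxb13* and *Hoxd13* were at 0, the sum did not exceed 1.04. The fall in PTH replicate 3 was not particular to gut genes. In PTH replicates 1, 2 and 3, lymphocyte markers summed to 22.9, 26.9 and 3.64 and endothelial markers to 7.55, 6.15 and 1.04. Blood progenitor and mast cell markers summed to 24.6, 24.6 and 3.74. Erythroid markers (212, 157 and 191) and chondrocyte markers (982, 839 and 922) did not fall in this way. The part of RNA of gut epithelium or other cells in the levels of *Hoxb13* and *Hoxd13* was not tested.

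**Figure D2:**
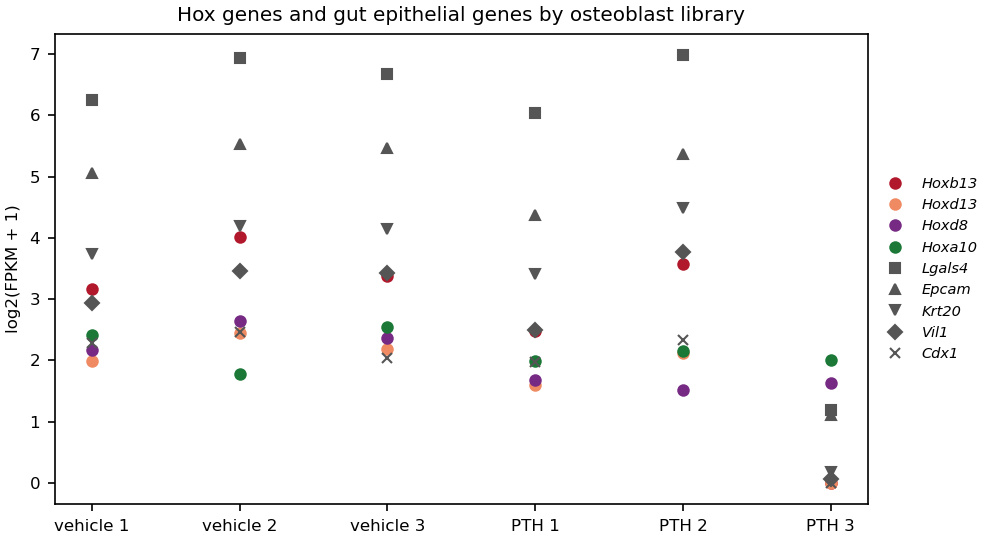
Level of 4 Hox genes (colored circles) and 5 gut epithelial genes (gray symbols) as log2(FPKM + 1), for each osteoblast library on the horizontal axis. In PTH replicate 3, *Hoxb13*, *Hoxd13* and *Cdx1* lie at 0 and *Lgals4* falls to an FPKM of 1.27, while *Hoxa10* (3.03) and *Hoxd8* (2.11) stay near the other PTH libraries.

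The first experiment asked what repeated PTH injection changes in osteoblasts. Of the 39 Hox genes, 14 reached an FPKM of 1 in at least 1 of the 6 libraries and were tested, and 25 did not and were not. PTH lowered 1 of them, *Hoxd8*, and raised none, while 15.2% of all 13004 tested genes were called at an adjusted *p* under 0.05 (8.85% lower and 6.38% higher). *Hoxd8* fell from an FPKM of 3.47, 5.23 and 4.13 (mean 4.28 ± 0.886, SD, n = 3) to 2.19, 1.85 and 2.11 (mean 2.05 ± 0.178, SD, n = 3), without overlap of the groups. The difference was −0.78 on the log2(FPKM + 1) scale (SE 0.166; adjusted *p* = 0.0290, limma). The call did not hold without vehicle replicate 1, 2 or 3 or PTH replicate 1 or 2 (adjusted *p* = 0.0837, 0.104, 0.0583, 0.0708 and 0.0561), where 2 libraries faced 3, nor with all low genes included (0.0506) or after quantile normalization (0.0535). The antisense gene *Hoxd3os1* overlaps *Hoxd8* and the osteoblast libraries did not mark strand. Since these are bulk samples, fewer cells of a type and less RNA per cell cannot be told apart, and the lymphocyte markers also fell and the neutrophil markers rose between the same groups. The part of other cells in the *Hoxd8* difference was not tested.

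Among the other tested members, the groups did not overlap for *Hoxa5* and *Hoxc10*. *Hoxa5* had 0.251, 0.822 and 0.735 with PTH against 1.31 to 1.87 with vehicle, a difference of −0.70 (SE 0.219; adjusted *p* = 0.0733), and thus lay below the threshold in every PTH library. *Hoxc10* had 3.77, 3.95 and 4.51 with PTH against 2.68 to 3.29, a difference of 0.38 (SE 0.138; adjusted *p* = 0.107). Neither passed the test. In all, 3 of the 14 tested members, 1 higher and 2 lower, had groups that did not overlap, where this held for 40.4% of all tested genes. *Hoxb2* overlapped by 1 library, with 4.53, 5.97 and 6.75 under PTH, and its difference of 0.50 did not pass (SE 0.233; adjusted *p* = 0.179). *Hoxa10* (−0.19, SE 0.216; adjusted *p* = 0.555) and *Hoxc6* (0.16, SE 0.220; adjusted *p* = 0.642) had 95% intervals from −0.70 to 0.32 and from −0.36 to 0.67, which leave room for changes in either direction.

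The largest differences in size, −1.50 for *Hoxb13* (SE 0.823; adjusted *p* = 0.246) and −0.97 for *Hoxd13* (SE 0.506; adjusted *p* = 0.227), did not pass the test either and rested on PTH replicate 3. Without it they were −0.49 and −0.35 (adjusted *p* = 0.406 and 0.341). No member passed at least 2-fold at an unadjusted *p* under 0.05 (5.59% of all genes did), and 3 of 14 had an unadjusted *p* under 0.05 (33.5% of all genes). Of the 14 tested members, 2 (*Hoxa5* and *Hoxd4*) had reached the filter through vehicle libraries alone and 3 (*Hoxa9*, *Hoxa13* and *Hoxb3*) through PTH libraries alone. Across the 39 genes, tested or not, the PTH mean was above the vehicle mean for 22, below it for 15 and equal for 2. All PTH libraries lay above all vehicle libraries for 4 (10.3%) and below them for 3 (7.69%). Over all 23284 genes the shares were 11.9% above and 12.6% below. *Hoxa9* and *Hoxa13* each passed an FPKM of 1 in PTH replicate 2 alone (1.15 and 1.13), the library with the muscle markers, and *Hoxb3* in PTH replicate 3 alone (1.01).

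**Figure D3:**
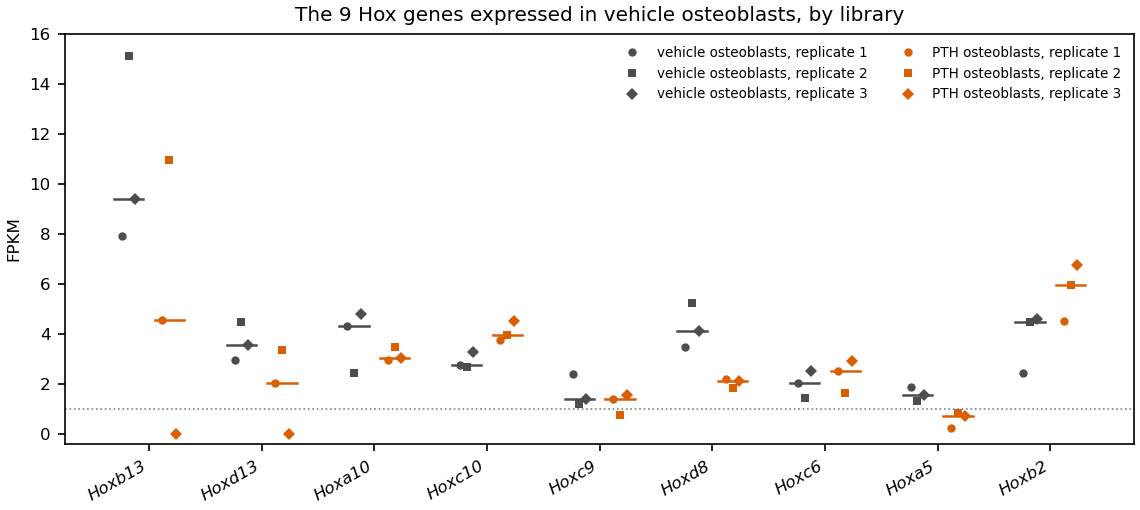
FPKM (vertical axis) of the 9 Hox genes expressed in vehicle osteoblasts, with 1 symbol per library, gray for vehicle and orange for PTH, bars at the median of 3 and a dotted line at an FPKM of 1. The PTH libraries lie below all vehicle libraries for *Hoxd8* and *Hoxa5* and above them for *Hoxc10*, and PTH replicate 3 lies at 0 for *Hoxb13* and *Hoxd13*.

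The second experiment asked what *Slpi* changes in an osteoblastic line. In MC3T3-E1 cells 5 Hox genes, all of cluster A, reached the filter and 34 did not. *Slpi* lowered 3 of the 5 and raised none, against 60.8% of all 11466 tested genes called (28.9% lower and 31.9% higher). *Hoxa10* fell from an FPKM of 3.63, 3.95 and 3.80 (mean 3.79 ± 0.159, SD, n = 3) to 2.59, 2.65 and 2.76 (mean 2.67 ± 0.0853, SD, n = 3). Its difference was −0.38 on the log2(FPKM + 1) scale (SE 0.0568; adjusted *p* = 0.000526, limma). *Hoxa3* fell from 1.55, 1.29 and 1.48 to 0.791, 0.855 and 0.893 (−0.40, SE 0.0773; adjusted *p* = 0.00229), and was thereby below the threshold for expression in all *Slpi* libraries. *Hoxa2* fell from 0.865, 0.962 and 1.05 to 0.477, 0.434 and 0.428 (−0.44, SE 0.0813; adjusted *p* = 0.00186), but it reached the filter through mock replicate 3 alone and was not tested without it. *Hoxa3*, too, reached the filter through the mock libraries alone, so that the lower direction of these 2 genes is partly set by the filter, and of the 3 calls *Hoxa10* alone is free of this. These 3 genes, all in the lower direction, also had groups that did not overlap and an unadjusted *p* under 0.05, where 67.1% of all genes had groups apart (32.2% lower and 34.9% higher) and 64.9% had such a *p*.

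*Hoxa5*, with 1.39, 1.32 and 1.46 in the *Slpi* libraries, overlapped the mock libraries (−0.18, SE 0.0842; adjusted *p* = 0.0951). Without mock replicate 3 its difference was −0.25 and passed (adjusted *p* = 0.0306). *Hoxa6*, with 1.38, 0.986 and 0.810, did not pass (−0.19, SE 0.146; adjusted *p* = 0.281). The members called were thus neither one end of the cluster nor a run of neighbors, since *Hoxa2* and *Hoxa3* lie toward the anterior end and *Hoxa10* toward the posterior end. No member passed 2-fold at an unadjusted *p* under 0.05 (1.13% of all genes). Across the 39 genes the *Slpi* mean was below the mock mean for 24, above it for 2 and equal for 13, and all 3 *Slpi* libraries lay below all 3 mock libraries for 10 (25.6%) and above them for none, where over all 24346 genes of the table the shares were 17.7% below and 17.9% above. Among these, *Hoxc6* went from 0.402, 0.482 and 0.665 to 0.085, 0.116 and 0.085, and *Hoxb3* from 0.190, 0.223 and 0.332 to 0.013, 0.128 and 0.089, values that stand for approximately 16 to 25 reads in each mock library and at most 9 in each *Slpi* library. Summed Hox FPKM was 8.18, 7.76 and 7.87 in the *Slpi* libraries, and cluster A held 91.0 to 92.4% of it. None of the genes silent in mock cells became expressed with *Slpi*.

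**Figure D4:**
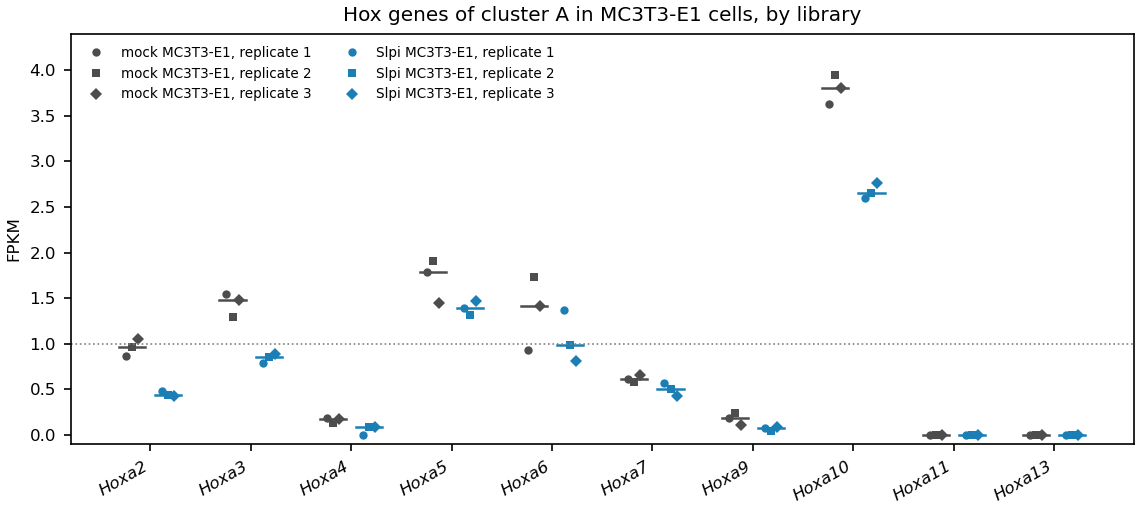
FPKM (vertical axis) of 10 *Hoxa* genes in MC3T3-E1 cells, with 1 symbol per library, gray for mock and blue for *Slpi*, bars at the median of 3 and a dotted line at an FPKM of 1. The *Slpi* libraries lie below all mock libraries for *Hoxa2*, *Hoxa3* and *Hoxa10*, and also for *Hoxa4*, *Hoxa7* and *Hoxa9*, which were not tested. They overlap the mock libraries for *Hoxa5* and *Hoxa6*, and both groups are at 0 for *Hoxa11* and *Hoxa13*.

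**Figure D5:**
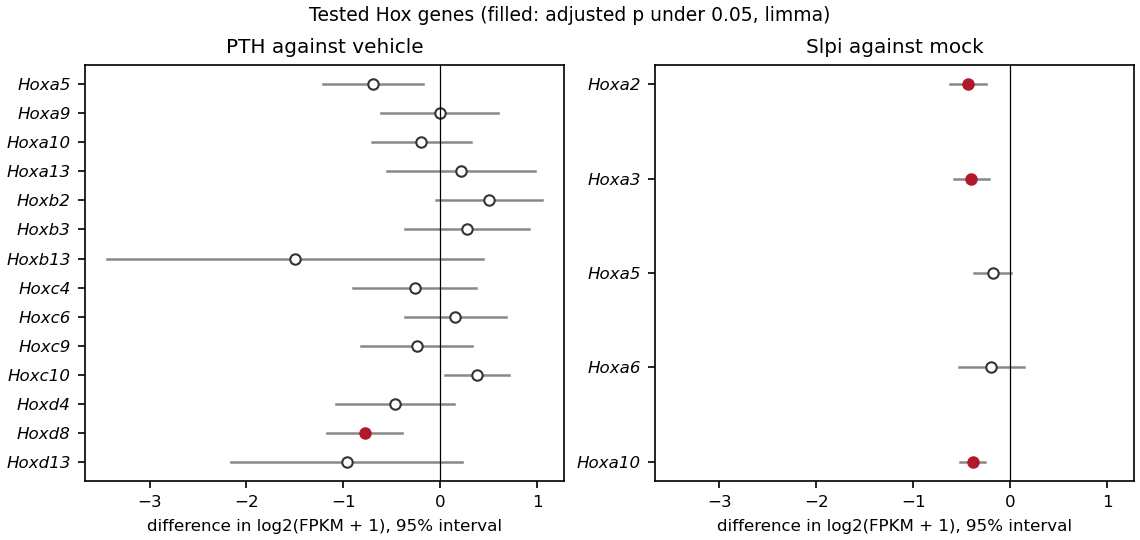
Difference in log2(FPKM + 1) with its 95% interval for the 14 Hox genes tested with PTH and the 5 tested with *Slpi*, filled where the adjusted *p* was under 0.05. *Hoxd8* is the only filled point with PTH (−0.78) and *Hoxa2*, *Hoxa3* and *Hoxa10* with *Slpi* (−0.44, −0.40 and −0.38), and the widest intervals are those of *Hoxb13* and *Hoxd13*.

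The partners and regulators of the Hox genes were read from lists of genes with a known role. Unlike most Hox genes, their TALE cofactors were expressed on both sides, 9 of 11 in vehicle osteoblasts and 10 of 11 in mock cells, with *Pknox2* expressed in mock cells (11.2 to 12.3) and silent in vehicle osteoblasts (0.254 to 0.678). None of the 10 tested passed the test with PTH, where 15.2% of all genes did, and *Slpi* raised 4 and lowered 4 of 10, where 60.8% of all genes were called, among them *Meis3*, which fell from 20.7 to 20.9 in mock cells to 12.1 to 13.2. Of the genes that act on Hox expression along the axis, the retinoic acid receptor gene *Rarg* rose with PTH, from 18.4 to 20.3 to 27.2 to 36.7 (0.62, SE 0.134; adjusted *p* = 0.0305), as the only one of 8 called, and *Slpi* raised *Gdf11*, which sets the trunk to tail transition, and lowered *Cyp26b1*, which degrades retinoic acid, and the receptor gene *Rara*, among 4 tested. PTH lowered 9 of 29 tested Polycomb and trithorax genes and raised none, where 8.85% of all genes were lowered and 6.38% raised, including *Ezh2* (−0.80, SE 0.191; adjusted *p* = 0.0378) and *Suz12* (−0.68, SE 0.178; adjusted *p* = 0.0457) of the complex that methylates histones at silent Hox genes. In the same libraries *Ptprc*, which encodes the blood cell antigen CD45, fell from an FPKM of 35.9 to 59.2 to 0.930 to 10.1, and the part of blood cell RNA in the Polycomb differences was not tested. *Slpi* raised 12 and lowered 7 of 31, close to the 60.8% called among all genes, with *Ezh2* higher (0.43, SE 0.0543; adjusted *p* = 2.2e-04).

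Other genes that mark position in the skeleton were compared in the same way. Of 32 craniofacial factors, 12 were expressed in vehicle osteoblasts and 20 in mock cells. The 20 limb and girdle factors leaned the same way, with 7 and 10, respectively. Over all 21733 genes the shares were 47.6% and 47.2%. The share expressed in mock cells and silent in vehicle osteoblasts was 2.80%, and the reverse 5.36%. *Alx1*, *Dlx2*, *Twist2*, *Zic2*, *Otx1*, *Lhx6*, *Pax3* and *Pax9* were expressed in mock cells and silent in vehicle osteoblasts, as was *Hoxa3*, and *Dlx3*, *Foxc2* and *Foxd1* showed the pattern of the 7 Hox genes found in osteoblasts. Among the limb and girdle factors, *Tbx2* was expressed in vehicle osteoblasts and silent in mock cells, and *Tbx3* and *Emx2* the reverse. *Tbx5*, which marks the forelimb, did not exceed 0.125 in any vehicle library, while of the hindlimb genes *Pitx1* and *Tbx4*, the first had 0.419, 0.0887 and 1.04 and the second at most 0.424. PTH raised 2 of 12 tested limb and girdle factors, *Prrx1* and *Tbx18*, and raised *Twist1* and lowered *Dlx1* among 19 craniofacial ones, against 15.2% of all genes called. *Slpi* raised 1 and lowered 5 of 11, and raised 5 and lowered 7 of 23, no larger a share than the 60.8% called among all genes. The noncoding RNAs of the clusters gave little, since 7 of 20 were listed in the osteoblast table, all at 0, and of 15 in the MC3T3-E1 table *Hotairm1*, a transcript of cluster A, was the only one tested, with 12.8, 11.5 and 2.97 in mock and 3.05, 4.64 and 6.86 in *Slpi* libraries, which overlapped.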

How the data were processed

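RNA-Seq values of 12 libraries were analyzed, 3 in each of 4 groups. The authors deposited FPKM per gene and library, which they calculated with Cuffnorm from single-end reads of 75 bases mapped to mm10. The submitters' processing notes name TopHat2 2.0.13, Bowtie2 2.2.3, SAMtools 0.1.19 and Cufflinks 2.2.1; the gene annotation is not given in the sources used here. Osteoblast cDNA was made with SMART-Seq v4, which does not mark strand, whereas the labels of the MC3T3-E1 libraries name a stranded TruSeq kit and the methods name one protocol for both. Near-identical exons of paralogs and overlapping Hox transcripts may share reads.

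Each experiment was fitted alone, with no replicate block, on log2(FPKM + 1), a scale that understates changes of low genes. A gene entered the fit when 1 or more of the 6 libraries reached an FPKM of 1. The fit used limma 3.58.1 (R 4.3.3; eBayes, trend on), with two-sided *p* values, Benjamini-Hochberg adjustment over all genes tested and calls under 0.05. With 3 libraries against 3, an exact permutation test cannot go below *p* = 0.1, and none was used. The model was tested on simulated data. Depth was read from the step of 1 read in low values, and covers counting error only. Positions came from GENCODE M21, promoters from RefSeq, and tables were handled in Python 3.11.15. Pearson's r of log2(FPKM + 1) across genes, which are not independent replicates, was 0.908 to 0.962 within osteoblast groups and 0.984 to 0.991 within MC3T3-E1 groups.

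Per-library values were given for members called in either experiment, for those past 2-fold at an unadjusted *p* under 0.05, for the 3 highest by mean in vehicle and mock libraries, and for those expressed in one and silent in the other; genes named beyond this were chosen after their values were seen. Values of some single genes are not reported here, though counts and sums include them. The members and gene lists were chosen with earlier results of these data known. Alternatives were a replicate block, other filters, a pseudocount of 0.1, eBayes without trend, quantile normalization, median centering, other FPKM thresholds and leaving out each library.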

Additional observations from a re-analysis of the deposited data

How the results depend on the processing

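The count of Hox genes called with PTH was 1 and became 0 with no filter on low values, after quantile normalization and under the 2-fold rule at an unadjusted *p* under 0.05, and ranged from 0 to 1 when 1 library was left out. It was kept at 1 without PTH replicate 3. All genes called then numbered 1 without vehicle replicate 1 and 0 without vehicle replicate 2, against 1981 with all libraries, so that these settings had little to call. *Hoxd8* stayed lower in all 13 alternatives (−1.01 to −0.65; adjusted *p* = 0.0281 to 0.104), and *Hoxa9*, near 0 in the fit reported (−0.01), turned to 0.17 after quantile normalization, 0.083 after median centering, and 0.075, 0.16 and 0.045 without vehicle replicate 3, PTH replicate 1 and PTH replicate 3 (range −0.076 to 0.16 over the libraries left out). The count with *Slpi* was 3 and became 9 of 26 tested with no filter, all lower, among them *Hoxa9*, *Hoxb3* and *Hoxc6*. In that setting 7040 of all 16826 genes tested were called. The count with *Slpi* was 0 under the 2-fold rule and 3 whichever library was left out. *Hoxa2* could not be fitted without mock replicate 3. With a replicate block the counts were 1 with PTH and 3 with *Slpi*, and the block changed no call among the Hox genes. Same-numbered libraries deviated together at most weakly (r = 0.029, 0.073 and 0.102 in osteoblasts and 0.039, −0.052 and −0.0003 in MC3T3-E1 cells). Unlike numbers gave −0.116 to 0.069 and −0.099 to 0.105, respectively. Over all genes the block took the calls from 1981 to 2262 with PTH and from 6973 to 7172 with *Slpi*. The numbers were not taken as a pairing.

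Expressed members numbered 9 in vehicle osteoblasts and 3 in mock cells. Counting any FPKM above 0 gave 23 and 19. A threshold of 0.5 gave 6 in mock cells and one of 2 gave 1, and 1 library of at least 1 sufficed for 5. Leaving out 1 library gave 9 to 9 in vehicle osteoblasts, 3 to 4 in mock cells, 7 to 7 for vehicle only and 1 to 2 for mock only. Members expressed in vehicle osteoblasts and silent in mock cells stayed within 1.5 times of 7 in every alternative run. Those expressed in mock cells and silent in vehicle osteoblasts (1) became 4 at 0.5, 0 at 2, 3 above 0, 2 by group means, 3 with 1 library sufficing and 2 without mock replicate 1. Rescaling each library to the same sum of FPKM, chosen after seeing the data, gave 6 for mock cells and 3 for mock only, and leaving out *Hoxb13* and *Hoxd13*, also chosen after seeing the data, gave 7 for vehicle and 5 for vehicle only. Depth limits members below an FPKM of 1 in osteoblasts, where a few reads decide a value.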
